A study of Mus musculus with 47 samples.

Results

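Interferon-stimulated genes are the genes whose RNA rises when a cell responds to interferon. Here 36 of them were followed as a module in mouse B cell lymphoma cells treated with Adriamycin (ADR, doxorubicin, a DNA-damaging drug). Members were found by their gene symbol in the platform annotation, with the brightest probe set standing for each gene, and 34 of the 36 were measured among 18194 genes. The probe set of Isg15 names a further gene and Ifi44 has no probe set with its symbol, so these 2 have no values. The study profiled primary lymphomas of Eµ-myc mice, in which the Myc oncogene is active throughout the B lineage. All cells carried a Bcl2 retrovirus against apoptosis and grew on irradiated NIH 3T3 mouse fibroblasts. Each array holds 1 culture in 1 state, and 47 arrays came from 22 cultures. The labels give 3 cultures as Suv39h1- plus Suv39h1ER, a Suv39h1 fused to an estrogen receptor part and switched on by 4-hydroxytamoxifen (4OHT), measured under ADR with 4OHT, under ADR alone and untreated (native). Suv39h1- lymphomas, which lack the histone methyltransferase Suv39h1, numbered 5 and were measured under ADR and native. Suv39h1 WT lymphomas numbered 14 and were measured in the same states. ADR was given at 0.05 µg/ml, for 5 days where a duration is labelled, which it is not for ADR with 4OHT. The label senescent was given to Suv39h1ER cells that received both ADR and 4OHT and to treated WT cells, and every other group is labelled non-senescent. Neither the age of the mice nor the dose of 4OHT is given in the sources used here.

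Type I interferons bind a receptor whose kinases, Jak1 and Tyk2, activate Stat2. It acts in a complex with Irf9 that binds the interferon-stimulated response element (ISRE) in the promoters of target genes. Type II interferon acts through a second element, GAS. Several members are themselves sensors of foreign or misplaced nucleic acid or factors that raise interferon output, so the pathway feeds back on itself. DNA damage and senescence are known settings in which this gene set can be active without a virus.

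The expression values are log2 intensities, so a difference of 1 is a doubling. Array medians lay between 4.32 and 4.43, apart from 4.07 for Suv39h1- lymphoma 1032 under ADR. The mean level of 9 B cell markers was 7.25 ± 0.28, 7.47 ± 0.73 and 7.36 ± 0.57 in Suv39h1ER cells under ADR with 4OHT, under ADR and native (SD, n = 3 each), 7.52 ± 0.83 and 7.59 ± 0.61 in Suv39h1- cells under ADR and native (SD, n = 5 each), and 7.62 ± 0.69 and 7.98 ± 0.39 in WT cells under ADR and native (SD, n = 14 each). In WT cells Cd79b had medians of 10.64 under ADR and 11.09 native and Cd22 8.55 and 10.30, while Pax5 (4.93 and 5.06) and Fcer2a (3.85 and 3.82) were low. The 18S control signal is a sign of RNA quality. Its medians were 8.68 in Suv39h1- cells under ADR and 8.70 in native ones, against 7.22 and 7.17 in WT cells. In Suv39h1ER cells they were 7.95 under ADR with 4OHT, 9.1 under ADR and 9.14 native. In native cells its ranges did not overlap, at 7.99 to 9.92 in Suv39h1- and 6.22 to 7.48 in WT. The Gapdh 3′ minus 5′ signal, a second such sign, had native medians of 0.244 in Suv39h1- and 0.0996 in WT cells. Under ADR it ran from 0.221 to 0.424 in Suv39h1- cells and from 0.011 to 0.907, with a median of 0.109, in WT cells. The Actb 3′ minus 5′ signal ran from 0.875 to 0.915 in Suv39h1ER cells under ADR with 4OHT, 0.471 to 0.791 under ADR and 0.91 to 1.39 native. Its range under ADR alone thus lay below both others, and ADR alone cannot be told apart from that difference in these cultures. Genotype cannot be told apart from the 18S and Gapdh differences between arrays. No level of Suv39h1 itself was analysed here, and genotypes are therefore taken from the labels. Lymphoma numbers 4936 and 5043 appear both among the Suv39h1ER cultures and in the Suv39h1- and WT groups, and were treated as separate cultures. Over the 200 most variable genes, native arrays of WT lymphomas 2949, 5043, 5766 and 6054 had correlations of 0.146 to 0.81, and the pair of Suv39h1- lymphomas 7890 and 9250 had 0.228, beside 0.0935 to 0.71 among the Suv39h1ER cultures and a highest value of 0.689 over 221 remaining pairs. An earlier pass over these arrays had set those lymphomas apart as alike, so results are also given with each such set counted once. The labels do not say that lymphomas came from different animals, so p-values measure the spread between lymphomas as labelled.

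Promoters were read from RefSeq (GRCm38.p6) in windows of 250 bases before to 50 bases after the start of each gene, and 27 of the 36 members had a window. The ISRE core GAAANNGAAA, searched on both strands, stood in 14 of these 27 (51.9%), against 1079 of 27025 genes (3.99%). It was found in 10 of the 16 members that rose in WT cells (62.5%) and in 3 of the 9 measured members that did not pass the test (33.3%). The GAS core TTCNNNGAA, whose reverse is the same pattern, was in 7 of 27 members (25.9%), against 9.55% of all genes, and in 18.8% of the members that rose and 44.4% of those measured that did not pass the test. These are matches of letters, not measured binding sites. The stretches of 100 bases below show the core upstream of the start in members that differ in their response. They run 5′ to 3′ along the gene's strand, with every base covered by a core match in capitals, as GAAA or, on the other strand, as TTTC.
Ifit1 (chr19:34640759-34640858, + strand): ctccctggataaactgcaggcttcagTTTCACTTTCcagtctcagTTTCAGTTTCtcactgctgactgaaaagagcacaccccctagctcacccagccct
Ifit3 (chr19:34583362-34583461, + strand): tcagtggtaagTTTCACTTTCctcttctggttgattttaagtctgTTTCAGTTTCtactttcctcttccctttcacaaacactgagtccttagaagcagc
Rsad2 (chr12:26456518-26456617, - strand): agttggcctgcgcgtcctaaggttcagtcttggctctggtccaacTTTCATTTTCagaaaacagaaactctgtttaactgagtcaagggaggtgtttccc
Isg15 (chr4:156200830-156200929, - strand): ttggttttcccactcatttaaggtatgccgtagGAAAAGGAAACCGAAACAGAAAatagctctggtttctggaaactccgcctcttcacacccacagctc
Gbp2 (chr3:142620559-142620658, + strand): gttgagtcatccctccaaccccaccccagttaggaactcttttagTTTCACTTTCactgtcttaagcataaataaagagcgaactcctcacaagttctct
Gbp3 (chr3:142559944-142560043, + strand): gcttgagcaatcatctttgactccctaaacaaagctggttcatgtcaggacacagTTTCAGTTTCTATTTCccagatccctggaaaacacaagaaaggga
Cxcl10 (chr5:92349040-92349139, - strand): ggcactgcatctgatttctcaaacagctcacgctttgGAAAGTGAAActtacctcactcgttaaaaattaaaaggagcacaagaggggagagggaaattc
Ifit1, Ifit3, Rsad2 and Gbp2 rose in WT cells under ADR, Gbp3 and Cxcl10 did not pass the test, and Isg15, the ubiquitin-like protein that Usp18 removes from its targets, has no value here. The windows of Oasl2 and Irf7, both of which rose, held no ISRE core.

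The first comparison asked how the module moved when WT lymphomas were treated. Under ADR, 24 of the 34 members rose and none fell, among them the antiviral effectors Ifit1, Oasl2 and Rsad2, the regulator Usp18 and the factor Irf7. Over all genes 16.1% were called higher, against 70.6% of the members. The median log2 change was 0.70 over the members and 0.00 over all genes, and 33 of 34 members had a change above 0, where 49.9% of all genes did. The mean level of the 34 members, called the module level here, was 7.30 ± 0.66 under ADR and 6.46 ± 0.46 in native cells (SD, n = 14 each). Its change within a lymphoma averaged 0.83 ± 0.66 (SD, n = 14) and was above 0 in 11 of 14 lymphomas. In no member did the WT groups separate fully: every member had at least 1 native array above at least 1 ADR array, although Ifit1 and Zbp1 were higher under ADR in all 14 pairs. The shares of all genes that separate, or are higher in all pairs, are not given here, so neither is a trait of the module. In bulk RNA, a larger share of cells with high expression and more RNA per cell cannot be told apart.

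**Figure D1:**
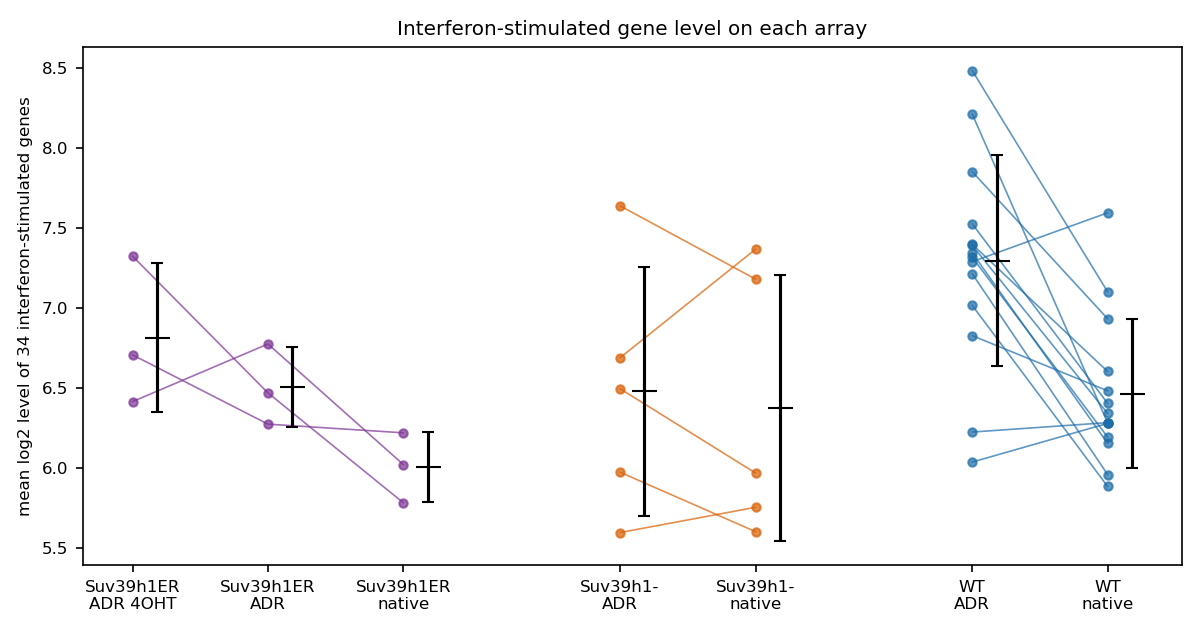
Module level (mean log2 level of the 34 measured interferon-stimulated genes, vertical axis) on each of the 47 arrays, by genotype and treatment. Lines join arrays of 1 culture, and black bars give the mean and SD. In WT cells 11 of 14 lines lie higher under ADR than native, in Suv39h1- cells 3 of 5, and the native arrays of Suv39h1- lymphomas 1032 and 7890 and WT lymphomas 403 and 9584 stand above 7.

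Among the transcription factors, 3 of 4 rose. Irf7, which drives interferon genes in an amplifying loop, had a level of 5.00 to 8.40 with a median of 5.91 in WT cells under ADR, and of 4.42 to 7.30 with a median of 5.05 in native cells. It rose by 1.06 (SE 0.26, adjusted p = 0.00286), in 12 of 14 lymphomas. Irf9, the DNA-binding partner of Stat2, rose by 0.69 (SE 0.16, adjusted p = 0.00127), in 13 of 14. Stat2 rose by 0.72 (SE 0.15, adjusted p = 0.000536), in 11 of 14. Irf1, a factor that interferon gamma and NF-kB induce, changed by 0.17 and was not called (adjusted p = 0.291).

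The nucleic acid sensors were mixed, with 3 of 6 called. Zbp1, a sensor of Z-form nucleic acid that can start necroptosis, had levels of 5.60 to 8.35 with a median of 7.13 under ADR and of 4.94 to 6.997 with a median of 5.58 in native cells. Its change was 1.38 (SE 0.22, adjusted p = 3.19e-05), and it was the sensor that was higher in 14 of 14 lymphomas. The dimmer Zbp1 probe set changed by 0.69 and was higher in 12 of 14. The RNA helicase sensors Ddx58 (RIG-I) and Ifih1 (MDA5) rose by 0.67 (SE 0.12, adjusted p = 9.17e-05) and 0.75 (SE 0.23, adjusted p = 0.0123), each in 12 of 14. Dimmer Ddx58 probe sets changed by 0.14 and 0.25, higher in 7 and 11 of 14. Dhx58 (LGP2), the partner helicase of RIG-I and MDA5, had a change of 0.27, the double-stranded RNA kinase Eif2ak2 (PKR) 0.12 and Trim25, a ubiquitin ligase that acts on RIG-I, 0.05, none of them called. Dimmer Trim25 probe sets changed by 0.05 and 0.39, higher in 9 and 10 of 14. Dhx58 and Eif2ak2 each have 3 probe sets whose WT changes differ in sign, from -0.20 to 0.27 for Dhx58 and from -0.21 to 0.19 for Eif2ak2. Eif2ak2 was also uneven between lymphomas, with a change of -2.02 in lymphoma 403 and 1.32 in lymphoma 3769.

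Of the antiviral effectors 12 of 15 were called, with a median change of 1.09, the highest among the roles. Ifit1, which binds viral RNA with an unmethylated cap, stood between 3.14 and 8.01 with a median of 5.70 under ADR and between 2.58 and 6.19 with a median of 3.37 in native cells. It rose by 2.12 (SE 0.36, adjusted p = 6.82e-05). Its neighbour Ifit3 rose by 1.54 (SE 0.27) in 11 of 14 lymphomas, while Ifit2, of the same gene family, had a change of 0.26 and was not called (adjusted p = 0.585). Ifit2 was higher in 8 of 14 lymphomas, and its change ran from -1.72 in lymphoma 9583 to 1.74 in lymphoma 3769.

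Oasl2, an oligoadenylate synthase-like protein, had levels of 3.77 to 8.95 with a median of 6.59 under ADR and of 3.12 to 6.99 with a median of 4.30 in native cells, a rise of 2.07 (SE 0.33, adjusted p = 3.16e-05). The synthases Oas2 and Oas3, which make the messenger that activates RNase L, rose by 1.09 (SE 0.19) and 0.74 (SE 0.19), and Oasl1, which in mice restrains Irf7 translation, by 0.69 (SE 0.24, adjusted p = 0.0283). The Oasl1 call was lost without lymphoma 3769, 5560 or 9584 (adjusted p = 0.0773, 0.0644 and 0.0707). Rsad2 (viperin) rose by 1.67 (SE 0.30) and all 3 of its probe sets rose alike, by 1.44 to 1.80. Of the dynamin-like GTPases, Mx1 rose by 1.29 (SE 0.33) and Mx2 by 0.33 (SE 0.09).

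Ifitm3, a membrane protein that hinders viral entry, had levels of 6.86 to 11.25 with a median of 9.74 under ADR and of 5.87 to 9.38 with a median of 7.59 in native cells, a rise of 1.91 (SE 0.33, adjusted p = 7.11e-05). It is widely expressed outside the blood lineage, fibroblasts included. Its change followed the fibroblast markers described further on, and which cells supplied the Ifitm3 RNA was not tested. Gbp2, a GTPase induced by interferon gamma above all, rose by 1.24 (SE 0.29) in 13 of 14 lymphomas. Its close relative Gbp3 had a change of -0.03, the lowest of the members, and was higher in 5 of 14. The brightest Gbp2 probe set is of a kind that can also read related sequences, and the other Gbp2 probe set changed by 1.20. The tether of budding virus, Bst2, rose by 0.34 (SE 0.13, adjusted p = 0.0477), and this call was lost without any of WT lymphomas 1570, 2581, 3594, 3769, 5560, 5766, 7050 or 9584 (adjusted p of 0.0541 to 0.122). The exonuclease Isg20 changed by 0.10 and was not called.

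Of the 7 regulators and other members, 6 rose. Usp18, a protease that strips Isg15 from proteins and damps the interferon receptor, stood between 4.15 and 9.12 with a median of 7.31 under ADR and between 3.16 and 8.59 with a median of 4.85 in native cells, a rise of 2.02 (SE 0.42, adjusted p = 0.000506). Rtp4, a receptor transport protein, spanned 4.45 to 9.98 with a median of 7.78 under ADR and 3.83 to 9.66 with a median of 5.34 in native cells, a rise of 2.04 (SE 0.39, adjusted p = 0.000253). Both were lower under ADR in lymphomas 403 and 2949 and higher in the other 12. Xaf1, which opposes an inhibitor of apoptosis, rose by 0.84 (SE 0.20), the ADP-ribosyltransferase Parp14 by 0.80 (SE 0.18) and Ifi35 by 0.48 (SE 0.12). Dimmer probe sets changed by 0.03 for Rtp4, 0.35 for Xaf1, 0.10 for Parp14, and 0.38 and 0.53 for Ifi35. Parp9 rose by 0.30 (SE 0.10, adjusted p = 0.0233), a call lost without lymphoma 1570 or 2581 (adjusted p = 0.0501 and 0.0519), while its partner ubiquitin ligase Dtx3l changed by 0.04 and was not called.

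Neither of the Cxcr3 ligands passed the test. Cxcl10 had levels of 4.05 to 7.10 with a median of 4.97 under ADR and of 3.99 to 6.48 with a median of 4.57 in native cells. Its change of 0.50 (SE 0.28, adjusted p = 0.208) was above 0 in 8 of 14 lymphomas and reached 3.12 in lymphoma 3769. Cxcl9 stayed between 3.05 and 3.56 under ADR and between 2.78 and 3.69 in native cells, with a change of 0.03.

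**Figure D2:**
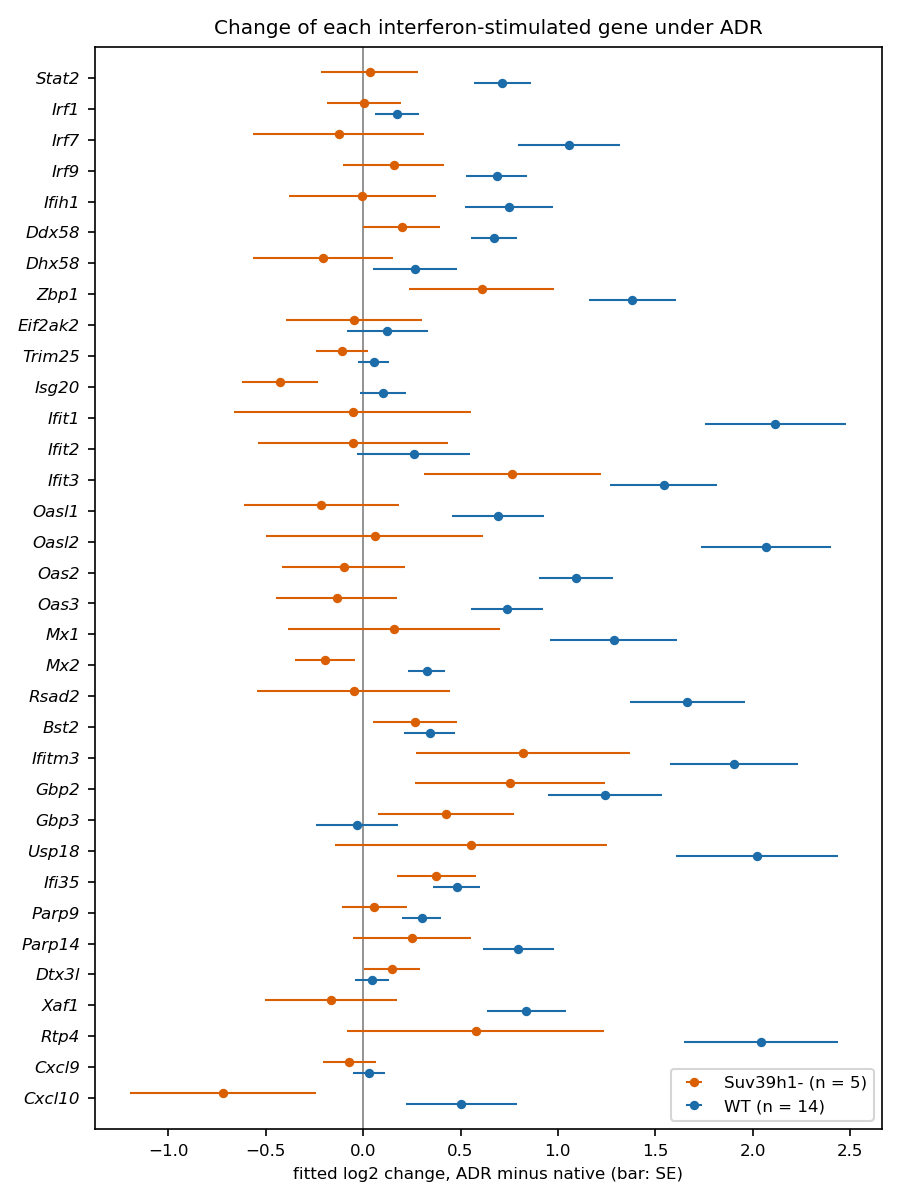
Fitted log2 change of each of the 34 members, ADR minus native, with its standard error (bars), in Suv39h1- (orange, above) and WT (blue, below) lymphomas. The WT points reach 2.12 for Ifit1 and 2.07 for Oasl2, and the Suv39h1- points lie between -0.72 for Cxcl10 and 0.82 for Ifitm3 with wider bars.

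The response differed widely between WT lymphomas. The module level changed most in lymphoma 3769, by 1.93, where the level was 8.21 under ADR and 6.28 in native cells. In that lymphoma 22 of 34 members were at least 1 log2 unit higher, against 7.93% of all genes. Lymphoma 9584 followed at 1.38, with 8.48 under ADR and a native level of 7.10, the second highest of the 14. Changes of 1.05 to 1.26 were seen in lymphomas 1570, 2581, 3594, 5043, 5766 and 7050, whose native module levels ran from 5.88 in 3594 to 6.40 in 7050. Lymphomas 5560 and 1467 changed by 0.92 and 0.80 from native levels of 6.93 and 6.60, and lymphoma 6054 by 0.35 from 6.48. The module was lower under ADR in 403 (7.29, against 7.59 native), 2949 (6.04, against 6.28) and 9583 (6.22, against 6.28), changes of -0.31, -0.24 and -0.06. Among these 3, lymphoma 403 had the highest native level of the 14 arrays, while 2949 and 9583 started from 6.28, as did lymphoma 3769, which changed most. A native level near 6.28 thus stood before both the widest change and 2 of the 3 negative changes. Across the 14 lymphomas the correlation of the level under ADR with the native level was 0.359 (Spearman 0.424), and 0.269 without lymphomas 403 and 9584, a description over lymphomas with no test.

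Named members show the same spread. In lymphoma 3769, Oasl2 had a level of 8.95 under ADR and 3.89 native, Ifit1 7.96 and 2.96, and Usp18 8.97 and 4.35. In lymphoma 403 the levels were 7.07 under ADR and 6.99 native for Oasl2, 6.56 and 6.19 for Ifit1, and 7.76 and 8.59 for Usp18. Lymphoma 403 under ADR thus held more Usp18 RNA than 9 of the other 13 treated lymphomas although its own change was negative. In lymphoma 9583, Oasl2 was at 3.77 under ADR and 4.06 native, and Ifit1 at 3.89 and 3.43. Neither gene passed 5 in lymphoma 9583 in either state. The 4 WT lymphomas set apart as alike were not alike in the module, with changes of -0.24 in 2949, 1.12 in 5043, 1.05 in 5766 and 0.35 in 6054.

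**Figure D3:**
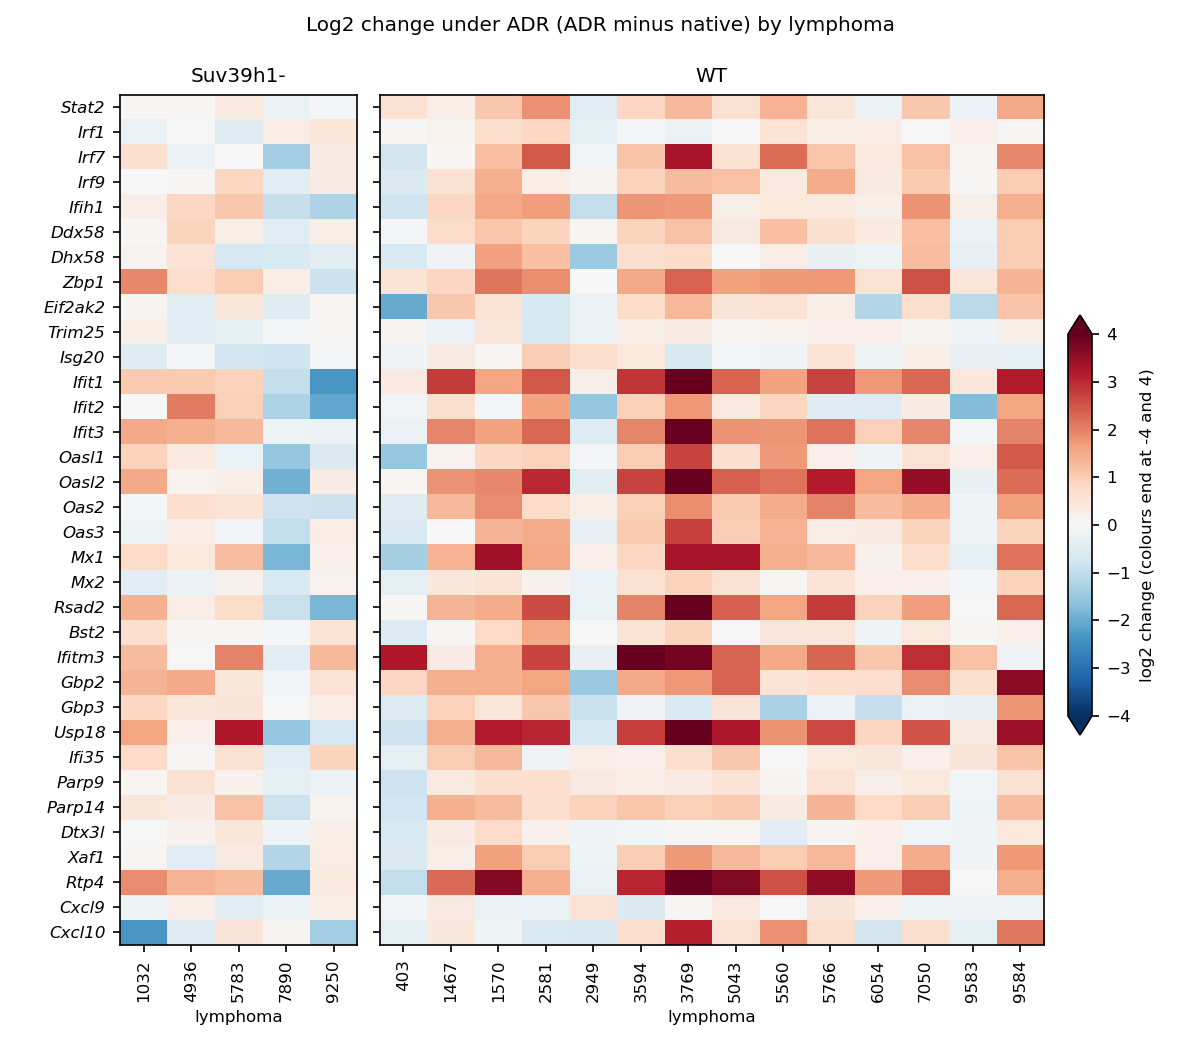
Log2 change, ADR minus native, of each member (rows, by role) in each Suv39h1- lymphoma (left) and each WT lymphoma (right). Colours end at 4 log2 units in either direction, and red is higher under ADR. Columns 403, 2949 and 9583 of the WT panel are pale or blue for most members, 3769 is the darkest red, and Ifitm3 is red in 403 although Mx1, Oasl1 and Eif2ak2 are blue.

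Most members moved together from lymphoma to lymphoma. Over the 561 pairs of members the median correlation of WT changes was 0.543, with 305 pairs above 0.5 and 69 below 0. Each correlation is over 14 lymphomas that share arrays and normalization. Correlations between other genes were not computed, so moving together is not shown to be a trait of the module. Usp18 followed the rest of the module most closely (0.981), then Ifit3 (0.952), Xaf1 (0.934), Rsad2 (0.916) and Oasl2 (0.909). Isg20 (-0.137) and Cxcl9 (-0.269) did not follow it, and Irf1 (0.159), Ifitm3 (0.299), Trim25 (0.306) and Gbp3 (0.375) did so loosely. In native levels the correlation with the rest was high for several members, with Irf7 and Oasl2 at 0.954 and Mx1 at 0.934, while Gbp2 stood at -0.164 and Gbp3 at -0.339.

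Markers of other cells moved in the same comparison. Fibroblast markers, which the feeder layer could supply, changed by 1.81 ± 1.27 (SD, n = 14), with 23 of 26 called higher, and their mean level ran from 4.96 to 8.98 under ADR and from 4.26 to 5.28 in native WT cells. Macrophage and monocyte markers changed by 1.05 ± 0.67 (SD, n = 14), with 10 of 18 called higher and mean levels of 5.30 to 7.48 under ADR and 4.53 to 6.78 in native cells. Of these, Csf1r had medians of 10.15 under ADR and 7.55 native, and Adgre1 9.21 and 6.13, whereas Cd163 (2.58 and 2.56) and Vsig4 (3.10 and 3.16) stayed near the floor. Neutrophil markers changed by 0.76 ± 0.40 (SD, n = 14), above 0 in 14 of 14 lymphomas, with 3 of 10 called higher and mean levels of 4.07 to 5.78 under ADR and 3.59 to 4.83 in native cells. The 3 were Lcn2 at 2.74, Mmp8 at 2.55 and S100a8 at 2.12, while the granule genes Mpo (medians 3.26 under ADR and 3.26 native) and Elane (3.96 and 4.00) were near the floor. B cell markers changed by -0.36 ± 0.40, with 3 of 9 lower (Cd22, Cd79a and Ebf1), plasmacytoid dendritic cell markers by -0.27, and T and NK cell lists by 0.09 and 0.00. Across the 14 WT lymphomas the module change correlated with the fibroblast change at -0.04 (Spearman 0.04; 0.408 without lymphomas 403 and 5560) with the macrophage change at 0.644 (Spearman 0.684; 0.686 without 2581 and 403) and with the neutrophil change at 0.308 (Spearman 0.103). These are descriptions over values from the same arrays.

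With the fibroblast change as a covariate, 9 members of 34 were called higher at a fibroblast change of 0, against 6.09% of all genes, and the module mean was 0.87. They were Ifit1, Oas2, Mx1, Zbp1, Irf9, Ifi35, Parp9, Parp14 and Rtp4. Among calls lost in this fit, the change was 2.19 for Usp18, 1.75 for Oasl2 and 0.616 for Ifitm3. Ifitm3 followed the fibroblast markers with a slope of 0.71 (SE 0.22, adjusted p = 0.0345), while Ifi35, Parp14 and Dtx3l had negative slopes (-0.30, -0.31 and -0.19). With the macrophage change as the covariate, an alternative chosen after seeing the data, no member was called at a macrophage change of 0 in limma, where 1 had an unadjusted p under 0.05, against 1.12% of all genes called higher, and the module mean was 0.17. At that share, a count of 0 among 34 members is near the background. No member had a called slope on the macrophage change, and only lymphoma 403, at 0.09, had a macrophage change close to 0. For Ifitm3 that slope was 0.73 (SE 0.52, adjusted p = 0.939 in limma), as steep as on the fibroblast change but with a wider error.

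**Figure D4:**
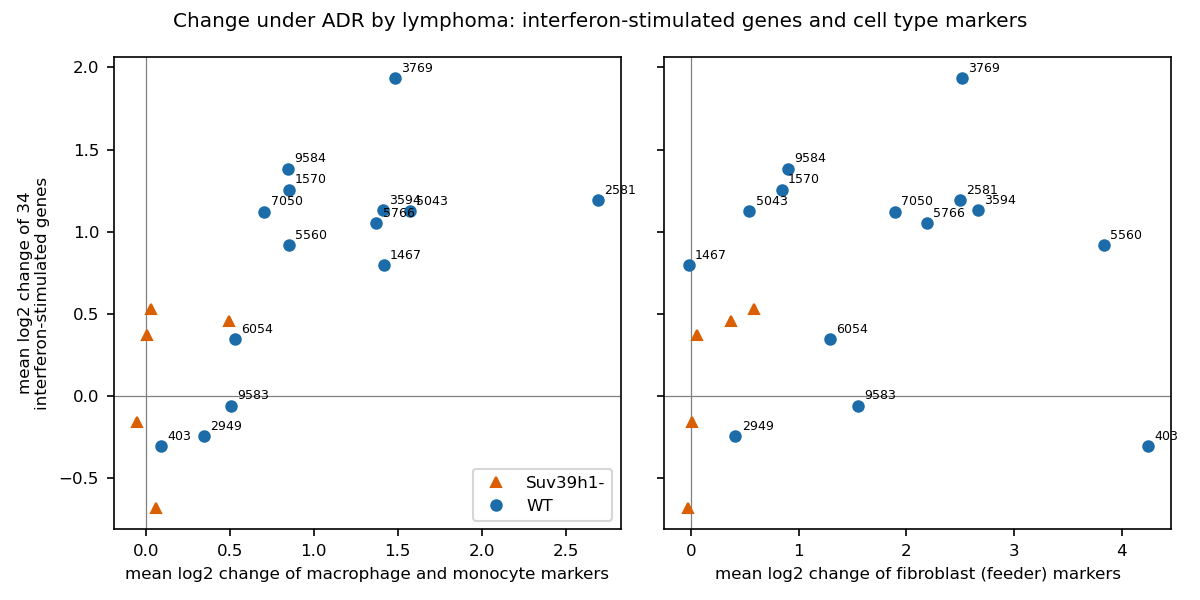
Mean log2 change of the 34 members (vertical axis) against that of macrophage and monocyte markers (left) and fibroblast markers (right), for each Suv39h1- (triangles) and WT (circles, with lymphoma number) lymphoma. In the left panel WT lymphomas with a larger macrophage change tend to lie higher (correlation 0.644), while in the right panel lymphoma 403 has the largest fibroblast change, 4.25, and a module change of -0.31.

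The rest of the pathway was read from lists of ligands, receptors, inducers, inhibitors and other interferon-stimulated genes. No interferon gene passed the test in WT cells: 10 of 19 listed were measured, changes ran from -0.21 to 0.12, and 1 had an unadjusted p under 0.05. Their mean level was 3.60 ± 0.09 under ADR and 3.63 ± 0.07 native (SD, n = 14 each), near the floor. At such levels an unchanged interferon RNA cannot be told apart from probes without signal. Of 10 receptor and proximal signalling genes 3 rose. They were Il10rb, a chain shared by the interferon lambda and interleukin-10 receptors, by 1.00 (SE 0.12), Ifngr2, a chain of the interferon gamma receptor, by 0.84 (SE 0.14), and the kinase Jak1 by 0.42 (SE 0.12). The type I receptor chains Ifnar1 and Ifnar2 had changes of 0.27 and 0.19, not called.

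Among 13 genes of interferon induction 8 rose, with Ifi204, a DNA-binding protein of the Ifi200 family, at 2.06 (SE 0.26), the kinase Ikbke at 1.13 (SE 0.20), the RNA sensor Tlr3 at 0.70 and the factor Irf5 at 0.51. The 11 inhibitors split, with 2 higher and 4 lower, where 16.1% of all genes were called higher and 14.1% lower. Adar, which edits double-stranded RNA, rose by 0.65, whereas Rnaseh2a and Rnaseh2b, subunits of the enzyme that removes RNA from DNA hybrids, fell by 0.97 (SE 0.09) and 0.79 (SE 0.13), and the phosphatase Ptpn2 fell by 0.38. Of 50 further interferon-stimulated genes outside the module, 24 rose and 3 fell, with Slfn2 at 1.69, Slfn8 at 1.49, Znfx1 at 1.31 and Lgals3bp at 1.21.

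In Suv39h1- lymphomas no member was called under ADR by limma, against 0.011% of all genes in either direction. The lowest adjusted p of a member was 0.437, and 1 member, Isg20, had an unadjusted p under 0.05 (2.94%, against 10.4% of all genes). The median change over members was 0.02, with 18 of 34 above 0, beside -0.04 over all genes, with 41.8% above 0. The module level was 6.48 ± 0.78 under ADR and 6.37 ± 0.83 in native cells (SD, n = 5 each), and its change averaged 0.10 ± 0.51. It was 0.46 in lymphoma 1032, 0.37 in 4936, 0.53 in 5783, -0.68 in 7890 and -0.16 in 9250. The lymphomas with the highest native module levels, 7890 at 7.37 and 1032 at 7.18, thus changed in opposite directions.

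Usp18 had levels of 9.16, 3.42, 6.29, 5.86 and 2.82 under ADR in Suv39h1- lymphomas 1032, 4936, 5783, 7890 and 9250, against 7.59, 3.20, 3.09, 7.40 and 3.49 native. Rtp4 had 8.50, 4.84, 5.80, 7.88 and 4.03 under ADR, against 6.62, 3.47, 4.53, 9.89 and 3.65 native. Both genes were higher under ADR in lymphomas 1032, 4936 and 5783 and lower in 7890. Ifit1 had 5.59, 4.58, 3.51, 4.47 and 2.83 under ADR, against 4.56, 3.52, 2.60, 5.41 and 5.16 native, so the lowest treated value belonged to lymphoma 9250. Isg20 was lower under ADR in all 5, by 0.43 in the fit (SE 0.19, adjusted p = 0.437). Fibroblast markers changed by 0.20 ± 0.27 and macrophage markers by 0.11 ± 0.22 in these lymphomas (SD, n = 5 each).

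The difference between both responses was tested directly, as the Suv39h1- change minus the WT change. No member passed in limma, against 0.341% of all genes in either direction, and the lowest adjusted p was 0.105, for Oas2. Before adjustment 11 of 34 members (32.4%) had a p under 0.05, against 18.8% of all genes. The median difference over members was -0.61, beside -0.05 over all genes. Of the members 32 of 34 were below 0, with Gbp3 at 0.46 and Dtx3l at 0.11 as the exceptions. Of all genes, 41.9% had a difference above 0. Differences were largest for Ifit1 at -2.17 (SE 0.71, adjusted p = 0.12), Oasl2 at -2.01 (SE 0.65, adjusted p = 0.117) and Rsad2 at -1.71 (SE 0.58, adjusted p = 0.128). With all array medians set equal, the calls over all genes shifted to 125 higher and 27 lower, from 28 and 34, and no member was called.

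Before treatment the mean module levels of the genotypes were close. No member was called between native Suv39h1- and native WT lymphomas in limma, against 1.09% of all genes in either direction, with 2 members (5.88%) at an unadjusted p under 0.05, against 9.54% of all genes. The module level was 6.37 ± 0.83 in native Suv39h1- (SD, n = 5) and 6.46 ± 0.46 in native WT lymphomas (SD, n = 14). It ran from 5.60 to 7.37 with a median of 5.97 in Suv39h1- and from 5.88 to 7.595 with a median of 6.31 in WT. Over the members the median difference was -0.10, with 14 of 34 above 0, beside 0.02 over all genes, with 55.3% above 0. Trim25 had the lowest p, with levels of 9.62 to 11.51 in native Suv39h1- cells and 9.40 to 10.51 in native WT cells, a difference of 0.65 (SE 0.21, adjusted p = 0.219). Without Suv39h1- lymphoma 1032 the difference was 0.867 and was called (adjusted p = 0.0282). Ifitm3 and Zbp1 had native differences of -1.29 (SE 0.64, adjusted p = 0.543) and -0.48 (SE 0.22, adjusted p = 0.502), not called.

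Under ADR the module level was 6.48 ± 0.78 in Suv39h1- (SD, n = 5) and 7.30 ± 0.66 in WT lymphomas (SD, n = 14), and 4 members were lower in Suv39h1- cells, 11.8% of the members against 6.3% of all genes called lower. Ifitm3 had levels of 8.78, 4.55, 9.86, 7.49 and 5.69 in Suv39h1- lymphomas 1032, 4936, 5783, 7890 and 9250, against 6.86 to 11.25 with a median of 9.74 in WT lymphomas, a difference of -2.38 (SE 0.71, adjusted p = 0.0338). Oas3 differed by -1.29 (SE 0.41, adjusted p = 0.0436), Zbp1 by -1.26 (SE 0.41, adjusted p = 0.0478) and Oas2 by -1.24 (SE 0.40, adjusted p = 0.0476). The groups overlapped for all 4. Of the 10 measured interferon genes 1 was lower in Suv39h1- cells under ADR, Ifna2 with a difference of -0.41 (SE 0.13, adjusted p = 0.0448). The mean level of these 10 genes was near the floor, at 3.48 ± 0.05 in Suv39h1- and 3.60 ± 0.09 in WT lymphomas under ADR. Over the members the median difference was -0.87, and 32 of 34 were below 0, beside a median of -0.04 over all genes. Of all genes, 43.6% had a difference above 0. Fibroblast markers averaged 5.13 ± 0.82 in Suv39h1- and 6.56 ± 1.16 in WT lymphomas under ADR, macrophage markers 5.54 ± 1.29 and 6.54 ± 0.71, neutrophil markers 4.25 ± 0.94 and 4.94 ± 0.48, and their part in these differences was not tested.

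The count of 4 depended on single lymphomas. It was 0 in limma without Suv39h1- lymphoma 4936, 7890 or 9250, where 8, 16 and 8 members had an unadjusted p under 0.05, and 2 without 5783. Without 1032, whose array has the low median, 16 members were lower and Trim25 was higher. Of the WT lymphomas, leaving out 2949 gave 7, leaving out 1467 or 1570 gave 2, and leaving out 2581, 3769, 5043, 5560, 5766, 7050 or 9584 gave 1. With the alike lymphomas counted once no member was called, and 14 had an unadjusted p under 0.05. Shares over all genes are not given here for these refits. Their counts show how stable the calls are and are not set against a background. With all array medians set equal, which raised the median of all genes by 0.11, the calls over all genes were 2292 higher and 634 lower in place of 1147 and 1146, Ifitm3 was lower and Trim25 higher, and the members' median was -0.76 beside 0.07 for all genes.

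In the Suv39h1ER cultures under ADR alone, no member was called against native cells in limma, where 0.126% of all genes were called in either direction and 3 members (8.82%) had an unadjusted p under 0.05, against 12.3% of all genes. The module level was 6.47, 6.77 and 6.27 in cultures SuvER-4146, 4936 and 5043 under ADR, against 5.78, 6.02 and 6.22 native, changes of 0.69, 0.75 and 0.05. All 3 arrays under ADR lay above all 3 native arrays in 10 of 34 members (29.4%), against 9.68% of all genes. Irf9 was the closest to a call, with 7.07, 7.77 and 6.82 under ADR and 6.25, 5.34 and 6.03 native (change 1.35, SE 0.34, adjusted p = 0.0992). Macrophage markers changed by 0.56, 1.95 and 0.50 in the same cultures, fibroblast markers by 1.15, 1.94 and 0.69, and neutrophil markers by 0.08, 1.75 and 1.10.

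With 4OHT added, 3 members rose against native cells, 8.82% of the members against 1.38% of all genes called higher. Gbp2 had levels of 10.80, 8.27 and 8.42 under ADR with 4OHT in cultures SuvER-4146, 4936 and 5043, against 5.58, 6.49 and 7.08 native, a rise of 2.78 (SE 0.63, adjusted p = 0.0176). Xaf1 had 8.72, 7.31 and 7.996, against 5.58, 6.42 and 7.27 native, and rose by 1.59 (SE 0.44, adjusted p = 0.0468). Parp9 had 9.51, 8.86 and 9.22, against 8.23, 8.27 and 8.66 native, and rose by 0.81 (SE 0.22, adjusted p = 0.0432). For each of these 3 genes every treated array was above every native one. That held for 19 of 34 members (55.9%), against 10.6% of all genes.

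The module changed by 1.54 in culture SuvER-4146, 0.39 in 4936 and 0.49 in 5043, to 7.32, 6.41 and 6.71. Without culture SuvER-4146 no member was called (4 had an unadjusted p under 0.05), and the changes were 1.57 for Gbp2, 0.806 for Xaf1 and 0.569 for Parp9. Without 4936 no member was called either (14 had an unadjusted p under 0.05), but the changes were 3.28, 1.93 and 0.920 for these genes. Without 5043 the count was 1. The arms left then rest on 2 cultures, with the spread shared over all groups. Fitted without the culture block, or over the Suv39h1ER arrays of these groups alone, no member was called (6 and 17 members had an unadjusted p under 0.05). For these refits no shares over all genes are given here, so their counts are not set against a background. Macrophage markers changed by 0.60, 0.77 and 0.66 in these cultures, fibroblast markers by 0.17, 0.98 and 0.32, and neutrophil markers by 0.19, 1.20 and 1.02.

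Set against ADR alone, ADR with 4OHT gave no called member in limma, against 0.143% of all genes in either direction, with 5 members (14.7%) at an unadjusted p under 0.05, near the 12.5% of all genes. The module level was higher with 4OHT in cultures SuvER-4146 and 5043, by 0.86 and 0.43, and lower in 4936, by 0.36. All 3 arrays with 4OHT lay above all 3 without it in 8 of 34 members (23.5%), against 8.55% of all genes. Rsad2 had 8.65, 7.44 and 8.14 with 4OHT, against 6.60, 6.78 and 6.67 under ADR alone (change 1.39, SE 0.64, adjusted p = 0.376). Usp18 had 6.50, 4.62 and 6.13, against 5.17, 7.09 and 4.65, and Ifitm3 5.60, 6.9995 and 7.42, against 8.46, 7.70 and 7.32. Usp18 was thus higher with 4OHT in cultures SuvER-4146 and 5043 and lower in 4936, while Ifitm3 was lower in SuvER-4146 and 4936. In culture 4936 macrophage markers changed by -1.18 and fibroblast markers by -0.96 between the same arrays, and their part was not tested.

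**Figure D5:**
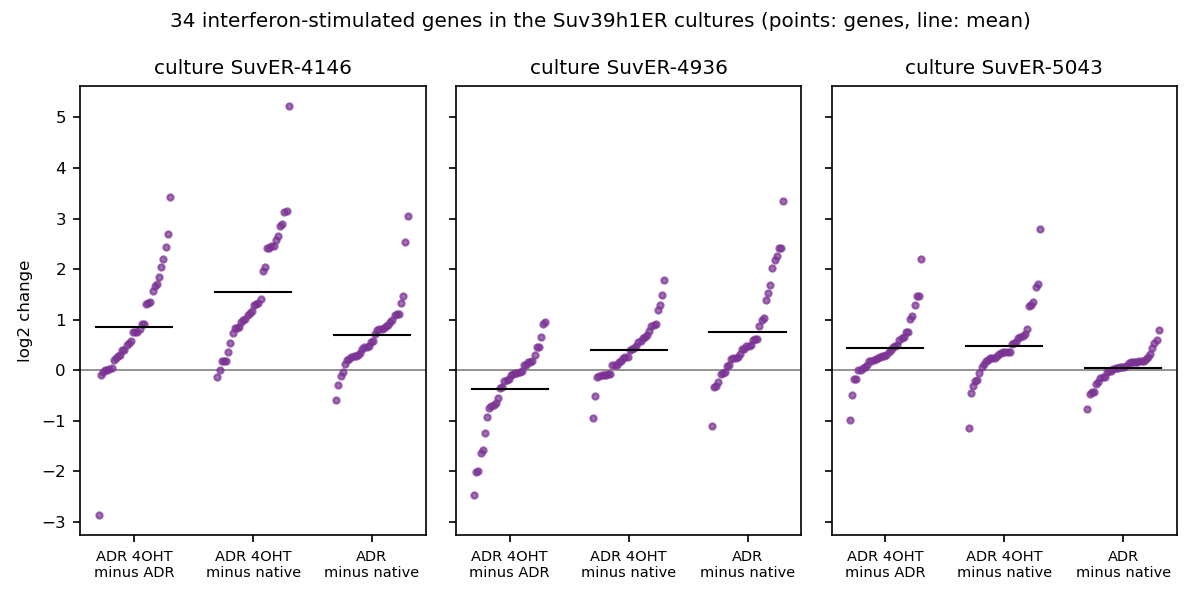
Log2 change of the 34 members (points, ordered within each column; black line, mean) in the 3 Suv39h1ER cultures for ADR with 4OHT minus ADR, ADR with 4OHT minus native, and ADR minus native. Culture SuvER-4146 has the highest mean with 4OHT over native, 1.54, and culture 4936 has a mean of -0.36 for ADR with 4OHT minus ADR.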

How the data were processed

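The authors deposited log2 expression values per probe set. The submitters' processing notes name RMA, oligo and R 3.5.0, without saying whether all arrays were normalized together. Of 45101 probe sets, 34958 carry 1 symbol in the platform annotation, 932 several and 9211 are unnamed here. Each gene was represented by its brightest probe set over 47 arrays, with no filter on dim genes. The number of arrays limits the precision.

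Differences were tested on all 18194 genes with limma 3.58.1 (lmFit, eBayes) in R 4.3.3 and adjusted by Benjamini-Hochberg, and a gene was called at an adjusted p under 0.05, two-sided. Within-culture comparisons used all 47 arrays with the 22 cultures as blocks, because the series design text describes matched pairs. Deviations of the arrays of a culture correlated above 0.1 in 10 of 14 WT, 5 of 5 Suv39h1- and 2 of 9 Suv39h1ER pairs. Genotypes were compared over 19 arrays without a block. The module level is the mean over members, described without a test. The fit was also run on simulated independent genes of equal residual spread. That checks the code and does not give error rates for these members, whose changes are correlated and differ in spread. Tables were read in Python 3.11.15 and figures drawn with matplotlib 3.10.9.

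The members and lists were chosen with earlier results of these data known. All 36 members are accounted for, by role. Of the other lists, called receptors and the 4 genes with the smallest p in the WT comparison are named. Alternatives changed the block, arrays, prior, dim filter, probe set rule, scaling, alike lymphomas, single cultures and marker covariates.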

Additional observations from a re-analysis of the deposited data

How the results depend on the processing

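In WT lymphomas the count of members called higher under ADR was 19 without the culture block and 21 to 24 under the other fits without a covariate, 22 to 24 when a lymphoma was left out. It fell to 9 with the fibroblast covariate and to 0 with the macrophage covariate, where 1108 and 203 genes of all were higher, in place of 2925. With the macrophage covariate the module mean was 0.165, in place of 0.832, and Bst2 (-0.288), Ifih1 (-0.083), Oas3 (-0.041) and Parp9 (-0.071) had the opposite sign. The pairing by culture came from the design text, and without the replicate block no member was called for ADR with 4OHT against native cells. That count of 3 was 0 over the compared groups alone, 1 with array medians equal, 5 among genes with a mean of at least 5, and 0 to 1 when a culture was left out. The count of 4 between genotypes under ADR was 2 with array medians equal, 1 with quantile normalization, 0 with alike lymphomas counted once, and 0 to 17 when a lymphoma was left out. Between native genotypes the count was 0 to 1 when a lymphoma was left out. The cause of these shifts was not tested, and in this section only the covariate fits have calls over all genes beside them. No member was called under any of these settings in the other comparisons. The module mean otherwise moved by less than its SD over lymphomas. The table holds no background signal, so dim members such as Cxcl9 cannot be separated from probes without signal. Brightness differs between probe sets, so levels are compared within a gene only. With 3 Suv39h1ER cultures and 5 Suv39h1- lymphomas, standard errors are wider than with 14 WT lymphomas, and a missed call does not show equal levels.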
